A study of Homo sapiens with 12 samples.

Results

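The subunits of the AP-1 transcription factor were followed by RNA-seq in 2 prostate cancer lines in which MUC1 was silenced. The 10 genes, taken by symbol from the 58037 gene identifiers of the count table, were FOS, FOSB, FOSL1 and FOSL2 of the FOS family, JUN, JUNB and JUND of the JUN family, BATF3, and the small MAF genes MAFF and MAFK. DU-145 is an androgen-independent prostate cancer line, and LNCaP-AI cells were derived from C4-2B, a descendant of LNCaP, by long-term selection in androgen-depleted medium. Both lines carried a tetracycline-inducible MUC1 shRNA (tet-MUC1shRNA) and were kept with vehicle (DMSO) or with 500 ng/ml doxycycline (DOX) for 7 days, with 3 samples in each of the 4 groups. The sample labels call these groups shCTL and shMUC1, while in the study's methods the same inducible cells received vehicle or DOX, and the latter names are used here. All 12 samples thus held the shRNA construct, and every DOX sample had also received the drug. An effect of DOX alone and an effect of MUC1 silencing cannot be told apart, since control-shRNA cells given DOX were not used here. By the labels both lines were grown without phenol red and in charcoal-stripped serum, whereas the study's methods give that medium for LNCaP-AI cells and ordinary serum for DU-145 cells.

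AP-1 is a pair of basic leucine zipper proteins that binds DNA as a dimer. JUN proteins can pair with each other or with a FOS protein, whereas FOS proteins need a JUN partner. FOS, FOSB, JUN and JUNB are induced within minutes by growth factor and stress signals, FOSL1 is a later and longer-lived product of sustained ERK signalling, and JUND is present in most resting cells. BATF3 is a small JUN partner without a transactivation domain, best known from dendritic cells. MAFF and MAFK also lack such a domain and either pair with each other or with CNC proteins such as NRF2.

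Total counts were 10423437 to 13544153 in the DU-145 samples and 16569613 to 26961777 in the LNCaP-AI samples. In DU-145 cells MUC1 counts were 74, 60 and 59 with vehicle and 3 in each DOX sample, and in LNCaP-AI cells 36, 25 and 52 against 8, 6 and 3. It was lower with DOX in both lines, by log2 values of -4.39 (DU-145, edgeR adjusted p = 1.37e-09) and -2.50 (LNCaP-AI, edgeR adjusted p = 0.0139), where it differed by -2.38 and -1.99 inside each side of the division described next. In both lines MUC1 passed the filter on low counts only through the vehicle samples, so that its direction was fixed by the filter. The fitted value in DU-145 cells depends on DOX samples at 3 counts. Of 8 luminal prostate markers fixed for checking the lines, all were above 3 counts in each LNCaP-AI sample and 2 in each DU-145 sample. The LNCaP-AI samples did not divide by treatment. On their first principal component, with 82.5% of the variance, vehicle 1 grouped with DOX 2 and DOX 3, and DOX 1 with vehicle 2 and vehicle 3. Neither the labels nor the methods give a reason for this division. Fold changes of the subunits and of other named genes in LNCaP-AI cells are therefore given over all 6 samples and, as log2 differences without a test, within each side.

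Levels of different genes were compared per length, as TPM, counts divided by exon length and scaled to the same sum in every sample. In vehicle-treated DU-145 cells FOSL1 led the subunits with 376 ± 43.7 TPM (SD, n = 3), followed by JUND with 132 ± 16.8 and FOSL2 with 111 ± 12.1 TPM. JUN stood at 66.0 ± 5.6 and JUNB at 44.9 ± 3.4 TPM, above MAFK with 19.2 ± 1.8 and MAFF with 11.1 ± 1.8 TPM. BATF3 followed with 5.2 ± 0.7 TPM and FOS with 2.7 ± 1.0 TPM, while FOSB was near the floor at 0.1 TPM. With these lengths, the union of all exons, the step from JUND to FOSL2 was smaller than the sum of their SDs. The other steps of this order were larger than the summed SDs of the genes on either side. FOS has 3186 bp of union exon and a longest transcript of 2104 bp, and BATF3 2569 and 2357 bp. The size of the step from BATF3 to FOS therefore depends on the length used. In vehicle-treated LNCaP-AI cells JUND had 166 ± 17.0, JUNB 121 ± 32.2 and JUN 66.6 ± 4.9 TPM, and FOSL1 spread too widely to be placed, at 173 ± 151 TPM. The step from JUND to JUNB was within their summed SDs. FOSL2 had 18.2 ± 3.1 and MAFK 15.5 ± 3.5 TPM there, a difference within their spread, followed by FOS with 8.4 ± 7.2, MAFF with 8.2 ± 4.9, BATF3 with 3.5 ± 0.4 and FOSB with 3.0 ± 1.4 TPM, which did not differ in order beyond the spread of FOS and MAFF. The plot of FOS and JUN family TPM by sample shows these levels.

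**Figure D1:**
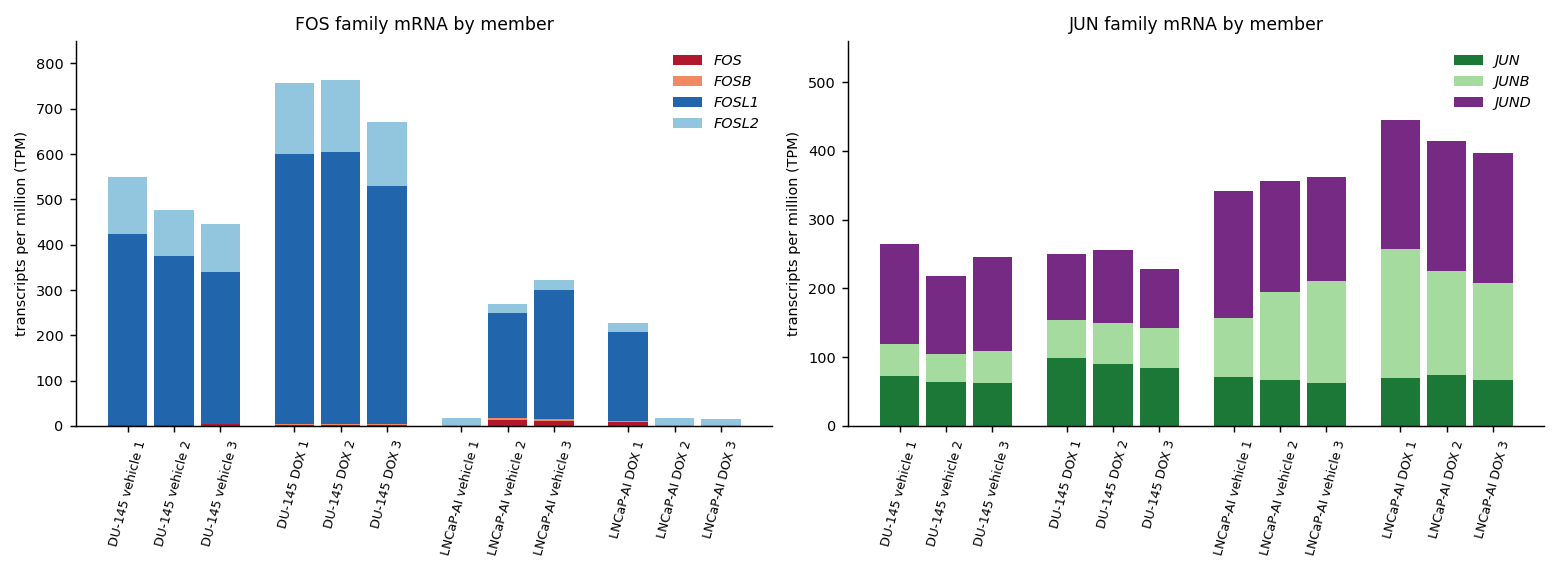
Summed TPM (vertical axis) of the FOS family (left) and of the JUN family (right) in each of the 12 samples, with each bar divided by family member. FOSL1 makes up most of the FOS family bar in all 6 DU-145 samples and in LNCaP-AI vehicle 2, vehicle 3 and DOX 1, and is nearly absent from LNCaP-AI vehicle 1, DOX 2 and DOX 3, where the bars are between 15.9 and 17.0 TPM.

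In DU-145 cells 7 of the 10 subunits rose with DOX, 1 fell and 2 did not pass the test. The rises were in FOSB, FOSL1, FOSL2, JUN, JUNB, MAFF and MAFK, and the fall was in JUND. The count includes FOSB, which had at most 2 counts in any vehicle sample and passed the filter on low counts only through the DOX samples, so that its direction was fixed by the filter. The other 6 rises were in genes with 150 or more counts in every sample. Among all 13644 genes tested in this line, 26.3% were called higher and 25.3% lower, at an adjusted p under 0.05. The median log2 fold change of the 10 subunits was 0.47, beside 0.00055 over all genes. For 8 of the 10 subunits, FOSB among them, the 3 DOX samples did not overlap with the 3 vehicle samples, as was so for 57.4% of all genes tested. The values per sample and the fold changes are shown in the plots of subunit levels and of the DOX effect.

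**Figure D2:**
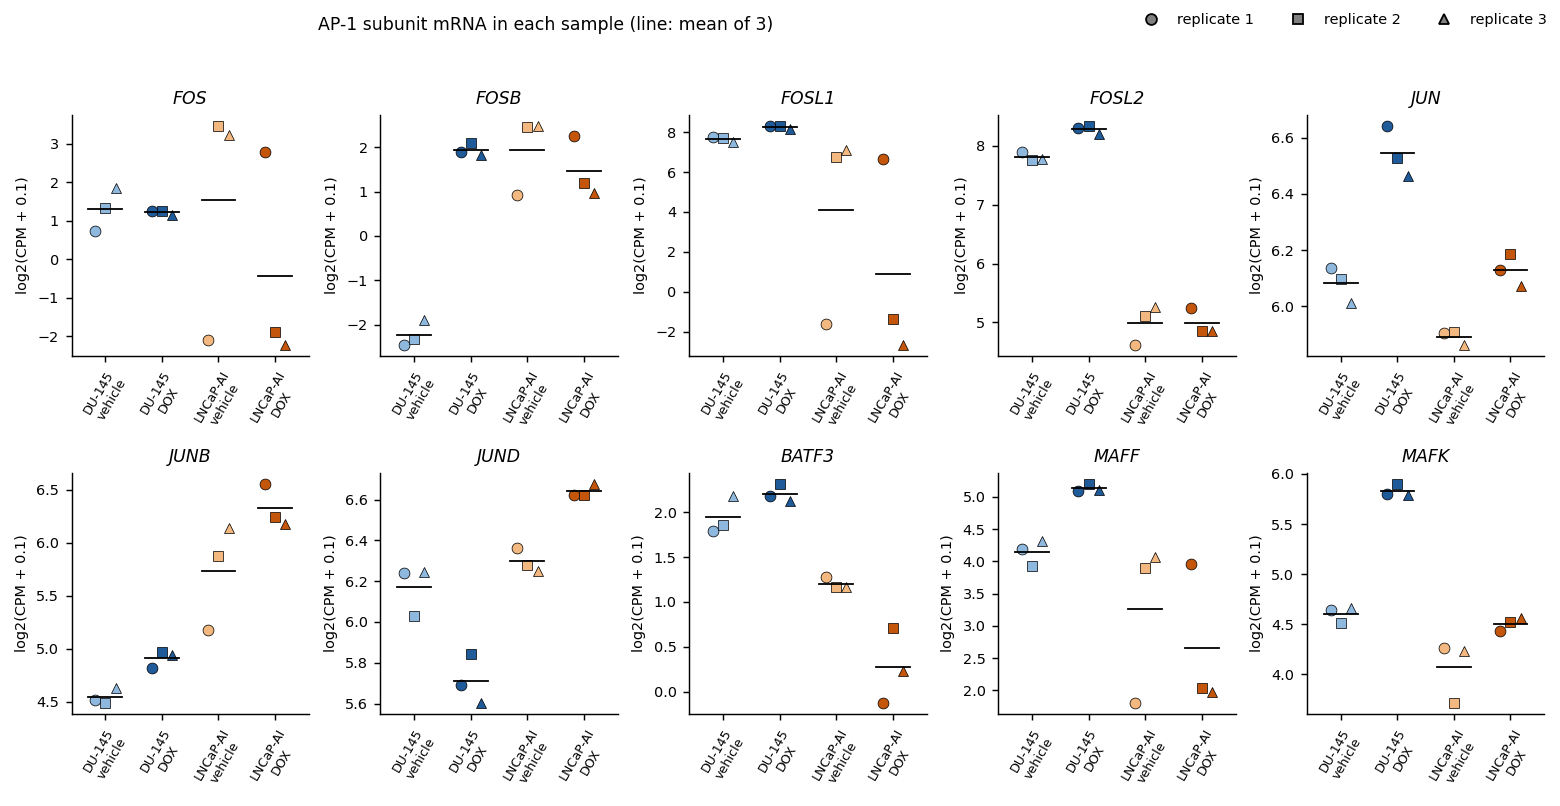
Level of each of the 10 subunits, as log2 of CPM (counts scaled to equal library size) plus 0.1 (vertical axis, scaled over all 12 samples), in the 4 groups; symbols mark the replicate numbers and the horizontal bar the mean of 3. DU-145 samples of a group lie close together, whereas FOS, FOSL1 and MAFF in LNCaP-AI cells fall into a high and a low set that each hold vehicle and DOX samples.

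By GENCODE release 44 on GRCh38, JUND lies on chromosome 19 from 18279694 to 18281622 on the minus strand and JUNB on the same chromosome from 12791486 to 12793315 on the plus strand. FOSB is also on chromosome 19, from 45467995 to 45475179. FOSL1 lies on chromosome 11 from 65892049 to 65900573, FOSL2 on chromosome 2 from 28392448 to 28417317, JUN on chromosome 1 from 58776845 to 58784048, and FOS on chromosome 14 from 75278826 to 75282230. BATF3 is on chromosome 1 from 212686417 to 212699840, MAFF on chromosome 22 from 38200767 to 38216507 and MAFK on chromosome 7 from 1530702 to 1543043.

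The 2 response elements that name the binding of AP-1 are the TRE (TGACTCA), bound by JUN and FOS dimers, and the CRE (TGACGTCA), bound by JUN and ATF dimers. AP-1 genes can carry such elements themselves. The 10 subunits were searched for them on both strands in promoter windows of RefSeq (GRCh38.p14, 250 bases before to 50 after the start site). Of the 10 subunits 7 had a window (all but FOSL1, BATF3 and MAFK), and MAFF had 2. JUND and the first MAFF window held a CRE and FOSL2 a TRE, while FOS, FOSB, JUN, JUNB and the second MAFF window held neither. Among all 35116 windows 4.949% held a TRE and 1.848% a CRE. The serum response element was in 1.293% of all windows and in none of these. Elements outside the windows, or with letters other than those searched, would not have been found, so that a missing match does not show that a gene lacks the element. A match of letters is a description and not a bound site. The matches are shown because JUND, which fell, and MAFF, which rose, hold the same 8 letters. They are given 5′ to 3′ on the strand of the gene with the element in capitals.
JUND (chr19:18281804-18281833, minus strand, the CRE starting 200 bases before the start site): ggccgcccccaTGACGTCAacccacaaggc
MAFF (chr22:38201929-38201958, plus strand, the CRE starting 54 bases before the start site): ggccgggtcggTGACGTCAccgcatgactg
FOSL2 (chr2:28392851-28392879, plus strand, the TRE starting 4 bases after the start site): tgccattgtagTGACTCAtctcgggcaga

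FOSL1 encodes FRA-1, a FOS protein often abundant in invasive carcinoma cells. Its level, as CPM after TMM scaling, was 199, 196 and 172 in the vehicle samples and 297, 300 and 273 in the DOX samples. All 3 DOX samples lay above all 3 vehicle samples, a 1.53-fold rise (log2 fold change 0.62, standard error 0.0734, edgeR adjusted p = 1.09e-06). FOSL2, encoding FRA-2, whose window held the TRE shown above, had 223, 204 and 208 CPM with vehicle and 299, 305 and 279 CPM with DOX. These groups were also apart, and the rise was 1.39-fold (log2 0.47, standard error 0.0687, edgeR adjusted p = 1.13e-05).

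FOSB, an immediate early gene with a transactivating full-length and a truncated product, showed the most marked ratio of the 10. The DU-145 vehicle samples held 1, 1 and 2 counts of it and the DOX samples 38, 53 and 39. The vehicle samples were thus under the floor of 3 counts. The summed counts, 130 against 4, gave a ratio of 32.1 relative to library size, with an exact 95% interval of 12.2 to 120 that covers counting error only (edgeR adjusted p = 1.23e-08). FOSB passed the filter only through the DOX samples, so that the filter fixed its direction and the p-value does not support it. Without any 1 of the DOX samples FOSB no longer passed the filter and had no test. FOSB with DOX reached 3.29 to 3.92 CPM, and 0.324% of the summed FOS family TPM (0.433% with the longest transcript as length). FOS itself, the founding member, was counted 19, 24 and 42 times with vehicle and 24, 29 and 24 times with DOX. The groups overlapped, and the log2 fold change was -0.16 with a 95% interval from -0.76 to 0.43 (edgeR adjusted p = 0.666).

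The summed TPM of the FOS family was 549, 476 and 446 in the vehicle samples and 758, 764 and 670 in the DOX samples of DU-145 cells. Each DOX sample was above each vehicle sample (exact two-sided permutation p = 0.1, the smallest that 3 against 3 samples can give). The make-up of this pool moved little, with FOSL1 at 76.7% ± 1.46 of it with vehicle and 78.4% ± 0.147 with DOX (SD, n = 3; exact permutation p = 0.1), and FOSL2 at 22.7% and 21.0%.

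The JUN genes did not move in 1 direction in DU-145 cells. JUN, the central partner of FOS proteins, had 65.6, 64.5 and 61.2 CPM with vehicle and 94.5, 86.6 and 83.9 CPM with DOX, a 1.39-fold rise (log2 0.47, standard error 0.0722, edgeR adjusted p = 2.23e-05). JUNB, a weaker activator that can oppose JUN, had 21.3, 21.0 and 23.5 CPM against 26.7, 29.4 and 29.2 CPM (log2 0.37, standard error 0.0902, edgeR adjusted p = 0.00187). JUND, the JUN protein of resting cells and a holder of the CRE shown above, went the other way. It had 70.5, 61.3 and 71.9 CPM with vehicle and 48.8, 53.8 and 46.1 CPM with DOX, a 1.37-fold fall (log2 -0.46, standard error 0.0822, edgeR adjusted p = 1.28e-04). None of these 3 genes had overlapping groups.

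Summed over the JUN family, the TPM was 243 ± 23.6 with vehicle and 244 ± 14.1 with DOX (SD, n = 3; exact permutation p = 0.9), while the make-up of this pool differed. JUND made up 55.1, 52.0 and 55.7% of it in the vehicle samples and 38.3, 41.1 and 37.9% in the DOX samples. JUN made up 27.3, 29.1 and 25.2% with vehicle and 39.5, 35.2 and 36.7% with DOX. JUNB went from 18.5% ± 0.827 to 23.7% ± 1.61. For each of these shares the groups did not overlap (exact permutation p = 0.1 each, the smallest possible). With the longest transcript as length in place of the exon length, JUND made up 36.7, 39.5 and 36.4% in the DOX samples. JUN then made up 42.1, 37.7 and 39.3%. Which of JUND and JUN was larger with DOX thus depended on the sample and on the length used.

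MAFF and MAFK, the small MAF proteins, rose by larger fitted folds than the FOSL and JUN genes in DU-145 cells. MAFK had 23.2, 21.4 and 23.9 CPM with vehicle and 52.7, 56.0 and 52.5 CPM with DOX, a 2.35-fold rise (log2 1.23, standard error 0.0812, edgeR adjusted p = 4.17e-10). MAFF, the other gene with that CRE, had 16.9, 14.3 and 18.8 CPM against 32.2, 34.4 and 32.8 CPM, a 1.98-fold rise (log2 0.99, standard error 0.0998, edgeR adjusted p = 1.46e-07). BATF3 had 3.14, 3.33 and 4.22 CPM with vehicle and 4.20, 4.58 and 4.05 CPM with DOX. These groups overlapped, and the log2 fold change of 0.26 had a 95% interval from -0.14 to 0.67 (edgeR adjusted p = 0.268).

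When all 12 samples entered a single fit, which then shared the spread of the LNCaP-AI samples, the rises of FOSL1, JUNB and MAFF no longer passed the test (edgeR adjusted p = 0.872, 0.227 and 0.265), at nearly the same fold changes of 0.61, 0.37 and 0.98 on the log2 scale. FOSB, JUNB, MAFF and MAFK overlap the genes ERCC1, HOOK2, PLA2G6 and TMEM184A on the opposite strand. How the counting treated strand is not given in the sources used here, so that reads of these pairs may not be fully separated. Of these neighbours TMEM184A (log2 0.45) and ERCC1 (log2 0.33) were also higher with DOX in DU-145 cells, PLA2G6 was lower (log2 -0.89), and HOOK2 did not pass the test. The 5 genes of the DU-145 marker list (VIM, CAV1, CD44, EGFR and AXL) summed to 2944 to 3375 CPM with vehicle and 2623 to 2964 CPM with DOX. All 5 were tested, 2 higher and 3 lower, and their part in the AP-1 values was not tested.

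**Figure D3:**
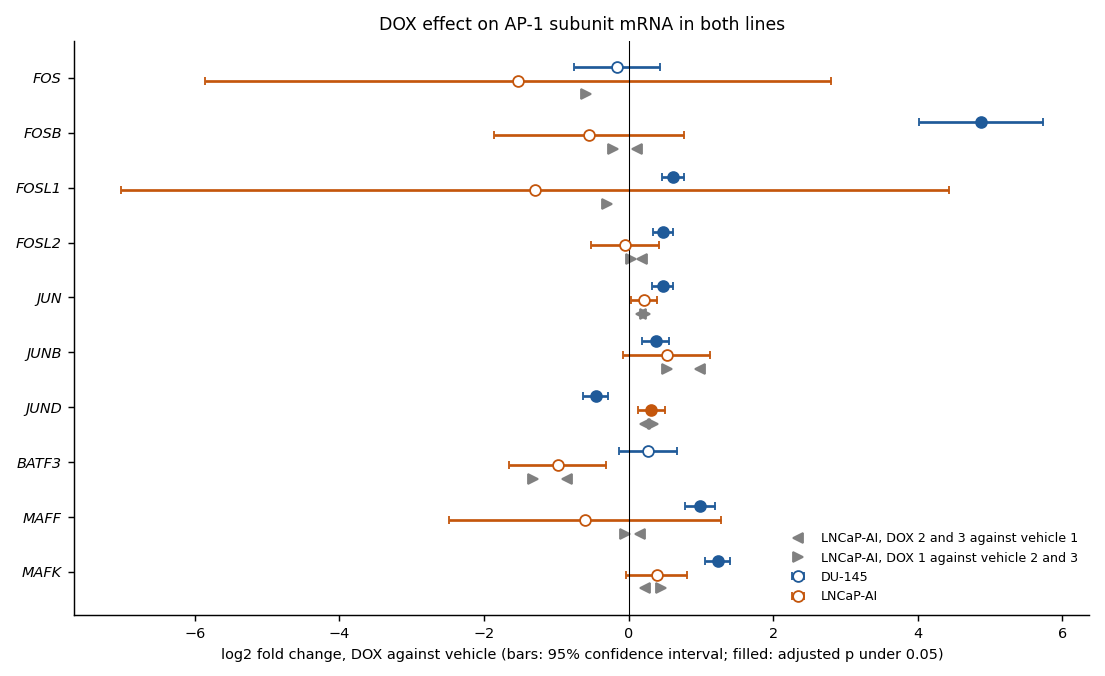
Log2 fold change of each subunit with DOX against vehicle (horizontal axis) in DU-145 (blue) and LNCaP-AI cells (orange), with 95% confidence intervals; filled circles have an edgeR adjusted p under 0.05, and grey triangles give LNCaP-AI values within each side of the division, left out for FOS and FOSL1 on the side near the floor. In LNCaP-AI cells only JUND is filled, and the intervals of FOS and FOSL1 span several log2 units.

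In LNCaP-AI cells 1 of the 10 subunits, JUND, was called higher with DOX and none (0) lower by edgeR, beside 7.22% of all 16030 genes called higher and 5.52% lower. At an unadjusted p under 0.05, 2 were higher (JUND and JUN) and 1 lower (BATF3), and DESeq2 called JUND and JUN. Over the 10 subunits the log2 fold changes had a median of -0.30, and over all genes of -0.05. The DOX and vehicle samples did not overlap for 5 subunits (JUN, JUNB, JUND, BATF3 and MAFK), beside 37.4% of all genes tested.

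FOSL1 in LNCaP-AI cells was counted 5, 2040 and 4023 times in vehicle 1, 2 and 3, and 2495, 5 and 1 times in DOX 1, 2 and 3. In CPM this was 0.24, 116 and 148 with vehicle and 107, 0.30 and 0.06 with DOX. The high and the low samples thus each held both treatments and followed the sides of the division. FOS showed the same split, at 3, 205 and 268 counts with vehicle and 166, 3 and 2 with DOX. MAFF had 3.69, 15.7 and 17.8 CPM with vehicle and 16.2, 4.20 and 4.02 CPM with DOX. FOSB, at 1.94, 5.68 and 5.81 against 4.91, 2.28 and 1.95 CPM, and FOSL2, at 26.6, 36.4 and 40.8 against 39.6, 30.3 and 30.4 CPM, were also lower in vehicle 1, DOX 2 and DOX 3 than in the other 3 samples. Over all 6 samples the treatment effects of these genes were poorly determined. The log2 fold changes were -1.30 for FOSL1 (standard error 2.35, edgeR adjusted p = 0.734), -1.53 for FOS (1.78, 0.608), -0.60 for MAFF (0.771, 0.641), -0.55 for FOSB (0.538, 0.542) and -0.05 for FOSL2 (0.194, 0.873). The fitted values of FOSL1 and FOS rest on samples at a few counts.

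Other genes divided with FOSL1. In LNCaP-AI cells CAV1 was counted 6, 1617 and 2412 times with vehicle and 1845, 2 and 1 times with DOX, and CD44 0, 1483 and 2405 against 1706, 1 and 3 times. AXL had 3, 978 and 1694 against 1127, 5 and 3 counts. The 5 genes of the DU-145 marker list, to which these 3 belong, summed to 130 to 146 CPM in vehicle 1, DOX 2 and DOX 3 and to 529 to 596 CPM in the other 3 samples, while VIM, of the same list, did not follow this division. The 8 luminal markers, all detected in each of the 6 samples, were higher on the side of vehicle 1 within each treatment, and higher with DOX. They summed to 3546, 2407 and 2300 CPM with vehicle and to 3750, 5061 and 5029 CPM with DOX, so that vehicle 1 was the highest vehicle sample and DOX 1 the lowest DOX sample, and 5 of the 8 were called higher with DOX and none (0) lower by edgeR, also at an unadjusted p under 0.05. In bulk RNA fewer cells of a kind and less RNA per cell cannot be told apart, and the part of these genes in the AP-1 values was not tested.

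**Figure D4:**
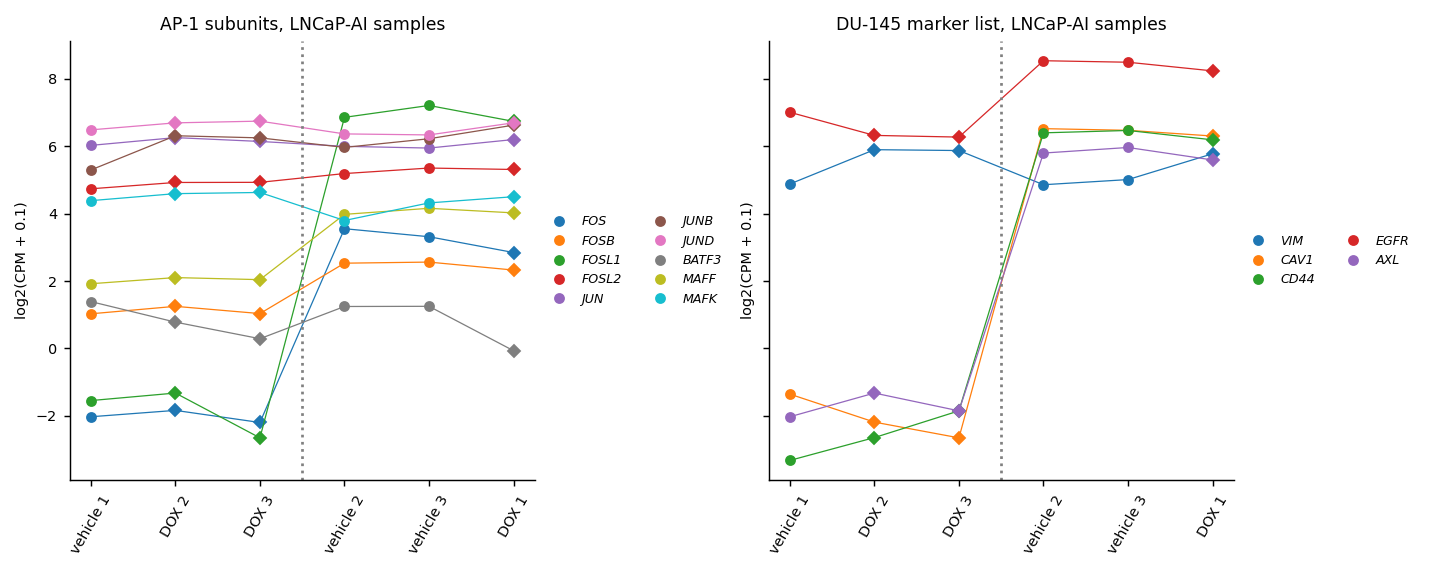
Log2 of CPM plus 0.1 (vertical axis) in the 6 LNCaP-AI samples, for the 10 subunits (left) and the 5 genes of the DU-145 marker list (right); circles are vehicle and diamonds DOX samples, lines only join the samples of 1 gene, and the dotted line parts the sides of the first principal component. FOSL1 and FOS change level at the dotted line as CAV1, CD44 and AXL do, while JUN and JUND run nearly flat across it.

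JUN and JUND did not follow the division in LNCaP-AI cells as FOSL1 did, while JUNB was lower on the side of vehicle 1 within each treatment. JUND had 89.5, 82.4 and 80.6 CPM with vehicle and 103, 103 and 107 CPM with DOX, a 1.24-fold rise (log2 0.31, standard error 0.0764, edgeR adjusted p = 0.0479). The value lay close to the threshold. It was not called without vehicle 2 (edgeR adjusted p = 0.0950), vehicle 3 (0.111), DOX 2 (0.180) or DOX 3 (0.199), nor without the filter on low counts (0.133). Within the sides the log2 difference was 0.23 between DOX 2 and 3 and vehicle 1, and 0.34 between DOX 1 and vehicle 2 and 3. JUN had 65.0, 63.7 and 61.5 CPM against 73.3, 76.3 and 70.5 CPM (log2 0.21, standard error 0.0754, edgeR adjusted p = 0.120), with within-side differences of 0.17 and 0.23. JUNB had 39.2, 62.4 and 74.5 CPM against 98.6, 79.3 and 75.9 CPM (log2 0.53, standard error 0.248, edgeR adjusted p = 0.209), with within-side differences of 0.98 and 0.53.

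BATF3 in LNCaP-AI cells had 2.52, 2.27 and 2.28 CPM with vehicle and 0.85, 1.62 and 1.12 CPM with DOX, from 52, 40 and 62 against 20, 27 and 19 counts. Every DOX sample lay below every vehicle sample, but the log2 fold change of -0.98 (standard error 0.276) did not pass the test (edgeR adjusted p = 0.0687). The within-side differences were -0.86 and -1.32. MAFK had 20.8, 13.8 and 19.8 CPM against 22.6, 24.0 and 24.6 CPM (log2 0.39, standard error 0.174, edgeR adjusted p = 0.194), with within-side differences of 0.23 and 0.45. Of the genes that followed the division, MAFF differed within the sides by 0.15 and -0.05, FOSL2 by 0.19 and 0.04, and FOSB by 0.11 and -0.22. For FOSL1 and FOS the side of vehicle 1 was near the floor and gives no fold, and on the other side DOX 1 differed from vehicle 2 and 3 by -0.30 and -0.59.

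With the side of the division as a covariate, 5 subunits passed the test in LNCaP-AI cells, beside 6271 of the 16030 genes tested. JUNB (log2 0.74, edgeR adjusted p = 2.30e-06), JUND (log2 0.29, edgeR adjusted p = 0.00670) and MAFK (log2 0.32, edgeR adjusted p = 0.0361) were then higher with DOX, and BATF3 (log2 -1.11, edgeR adjusted p = 0.00100) and FOS (log2 -0.56, edgeR adjusted p = 0.0278) were lower. The sides were read from the same counts that are tested, so that these calls stand only as a comparison. The summed TPM of the JUN family was 342, 357 and 363 in the vehicle samples and 445, 414 and 397 in the DOX samples (exact permutation p = 0.1, the smallest possible). The share of JUND in it was 47.1% ± 6.27 with vehicle and 45.0% ± 2.87 with DOX (SD, n = 3; exact permutation p = 0.8).

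Whether DOX acted differently in the 2 lines was tested by an interaction term in a fit of the 12 samples. Of the 10 subunits 1 had a higher effect in LNCaP-AI than in DU-145 cells and 3 a lower one, beside 5.43% and 3.76% of the 16800 genes tested. For JUND the effect was higher by 0.80 on the log2 scale in LNCaP-AI cells (standard error 0.117, edgeR adjusted p = 0.00309), where it rose while it fell in DU-145 cells. For FOSB the difference was -5.43 (standard error 0.790, edgeR adjusted p = 0.00311), a fitted value that depends on the 1 to 2 counts of the DU-145 vehicle samples. For MAFK it was -0.81 (standard error 0.183, edgeR adjusted p = 0.0221), and for BATF3 -1.21 (standard error 0.323, edgeR adjusted p = 0.0417). The other 6 subunits did not pass, including FOSL1 with a 95% interval from -7.21 to 3.44 (edgeR adjusted p = 0.682) and JUN with an interval from -0.43 to -0.02 (edgeR adjusted p = 0.162).

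The calls for JUND and FOSB held when any 1 of the 12 samples was left out. The call for BATF3 was lost with DESeq2's size factors (edgeR adjusted p = 0.0525), with upper-quartile scaling (0.0581) and without the filter (0.123), and without any of 9 samples (each DU-145 sample and LNCaP-AI vehicle 2, vehicle 3 and DOX 3; edgeR adjusted p between 0.0559 and 0.105). The call for MAFK was lost without DU-145 vehicle 2, DOX 1 or DOX 2, or LNCaP-AI DOX 2 or DOX 3 (edgeR adjusted p between 0.0503 and 0.0590). Without LNCaP-AI DOX 1, 7 subunits were called, with FOSL1, FOSL2 (log2 -0.64) and MAFF (log2 -2.56) added (edgeR adjusted p = 0.0190, 0.0492 and 0.0214). FOSL2 was also called without LNCaP-AI vehicle 1 (log2 -0.66, edgeR adjusted p = 0.0228). In each case the LNCaP-AI samples left in that treatment group were from 1 side of the division, so that these added calls stand only as a comparison.

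The lines were also compared at baseline, as vehicle-treated DU-145 against vehicle-treated LNCaP-AI cells, where line and any difference in preparation cannot be told apart. Of the 10 subunits 4 were higher in DU-145 cells (FOSL2, BATF3, MAFK and JUN) and 2 lower (FOSB and JUNB), beside 30.2% and 35% of the 15628 genes tested. On a scale common to the 6 vehicle samples, FOSL2 had 243, 223 and 226 CPM in DU-145 cells and 24.5, 34.1 and 38.5 CPM in LNCaP-AI cells. The DU-145 level was 7.12-fold higher (log2 2.83, standard error 0.175, edgeR adjusted p = 1.95e-05). JUNB had 23.2, 23.0 and 25.5 against 36.1, 58.4 and 70.4 CPM and was 2.30-fold lower in DU-145 cells (log2 -1.20, standard error 0.233, edgeR adjusted p = 0.00307). FOSB had 4 summed counts in DU-145 and 298 in LNCaP-AI vehicle samples, a ratio of 35.3 in favour of LNCaP-AI cells with an exact 95% interval of 13.7 to 131 for counting error (edgeR adjusted p = 5.05e-04). It passed the filter here only through the LNCaP-AI samples, so that its direction was fixed by the filter. FOSB had no test without any 1 of these samples.

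BATF3 had 3.41, 3.64 and 4.59 CPM in DU-145 and 2.32, 2.13 and 2.15 CPM in LNCaP-AI vehicle samples, a 1.76-fold difference (log2 0.82, edgeR adjusted p = 0.0103) that was not called without the filter (log2 0.67, edgeR adjusted p = 0.0833). MAFK, at 25.2, 23.4 and 26.0 against 19.2, 12.9 and 18.7 CPM, was 1.47-fold higher in DU-145 cells (edgeR adjusted p = 0.0238). That call was lost without DU-145 vehicle 1 or 3 or LNCaP-AI vehicle 2 or 3 (edgeR adjusted p between 0.0539 and 0.0605) and without the filter (0.0912). JUN differed 1.17-fold (edgeR adjusted p = 0.0407) and was no longer called without DU-145 vehicle 1 or 2 or without any of the LNCaP-AI vehicle samples (edgeR adjusted p between 0.0645 and 0.230), with upper-quartile scaling (0.190), without the filter (0.563) or with a filter of 1 CPM in 3 samples (0.0508). JUND, at 76.8, 67.1 and 78.3 against 82.4, 77.1 and 76.1 CPM, had overlapping groups (log2 -0.09, 95% interval -0.31 to 0.14, edgeR adjusted p = 0.447).

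FOSL1 at baseline had 217, 215 and 187 CPM in DU-145 cells and 0.22, 108 and 140 CPM in LNCaP-AI cells (log2 1.31, standard error 1.27, edgeR adjusted p = 0.388). Without LNCaP-AI vehicle 1 the log2 difference was 0.65 (edgeR adjusted p = 1.10e-05). FOS had 1.58, 2.50 and 3.64 CPM against 0.13, 10.9 and 9.30 CPM (log2 -1.40, edgeR adjusted p = 0.282), and without LNCaP-AI vehicle 1 it was lower in DU-145 cells by a log2 difference of -2.04 (edgeR adjusted p = 2.12e-08). Vehicle 1 was the lowest LNCaP-AI vehicle sample for FOSL1 and FOS, and vehicle 2 and vehicle 3 were from the same side of the division. The values without vehicle 1 therefore stand only as a comparison. MAFF had 18.4, 15.6 and 20.4 CPM against 3.39, 14.7 and 16.8 CPM and did not pass the test (log2 0.64, edgeR adjusted p = 0.297).

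Of 11 other AP-1 and MAF family genes, 6 could be tested in DU-145 cells, of which 4 rose and 2 fell, beside 26.3% and 25.3% of all genes, with a median log2 fold change of 0.32. ATF3, a stress-induced partner of JUN proteins, went from 64, 45 and 73 to 237, 246 and 276 counts (log2 2.05, edgeR adjusted p = 7.56e-10). ATF7 (log2 0.40) and MAFG, the third small MAF (log2 0.25), were also higher, while ATF2 (log2 -0.59) and JDP2, a repressor that pairs with JUN (log2 -0.42), were lower. In LNCaP-AI cells 8 were tested, 2 rose and 1 fell, beside 7.22% and 5.52% of all genes, with a median of 0.11. ATF3 (log2 1.19, edgeR adjusted p = 0.0144; within the sides of vehicle 1 and of DOX 1, 1.04 and 1.10) and MAF (log2 1.64; 1.31 and 1.65) were higher and JDP2 (log2 -1.21; -1.62 and -0.85) was lower with DOX. ATF3 was thus called higher, and JDP2 lower, in both lines.

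Of 6 partners of the small MAF proteins 4 were tested in DU-145 cells, where NFE2L1 was higher (log2 0.22) and NFE2L2, which encodes NRF2 (log2 -0.71, edgeR adjusted p = 6.32e-08), and NFE2L3 (log2 -0.38) were lower, beside 26.3% of all genes called higher and 25.3% lower. The median was -0.15. In LNCaP-AI cells 5 were tested and none was called by edgeR or DESeq2, beside 7.22% and 5.52% of all genes, with a median of -0.33, while BACH1 and NFE2L3 (log2 -0.33 and -0.36) had an unadjusted p under 0.05.

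Of 28 kinases, phosphatases, ligases and transcription factors upstream of AP-1, 27 were tested in DU-145 cells, 13 rose and 2 fell, beside 26.3% and 25.3% of all genes, with a median log2 fold change of 0.26. DUSP5, a phosphatase that acts on nuclear ERK, went from 929, 800 and 867 to 3455, 4009 and 3555 counts (log2 2.07, edgeR adjusted p = 1.15e-13). MEF2D (log2 0.79) and the MAP kinase phosphatase DUSP1 (log2 0.67) were higher, and MAPK9, which encodes the JUN kinase JNK2 (log2 -0.84), and ELK4 (log2 -0.56) were lower. In LNCaP-AI cells 28 were tested, of which 2 rose and 1 fell, near the 7.22% and 5.52% of all genes, with a median of -0.08. MAPK10 (log2 2.10; 2.09 and 1.75 within the sides) and RPS6KA2 (log2 0.43; 0.44 and 0.38) were higher and MAPK9 (log2 -0.77, edgeR adjusted p = 0.0180; -0.97 and -0.69) was lower.

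Of 32 genes described as AP-1 or MAF targets, 27 were tested in DU-145 cells, 14 rose and 7 fell, beside 26.3% of all genes called higher and 25.3% lower, with a median of 0.31. The share that fell was near that of all genes. MMP1, a collagenase with a classical AP-1 site, went from 46, 43 and 37 to 509, 518 and 488 counts (log2 3.57, edgeR adjusted p = 1.44e-13). The EGFR ligand HBEGF (log2 1.70) and the urokinase receptor PLAUR (log2 1.59) were also higher. NQO1 (log2 -0.96) and HMOX1 (log2 -0.61), which are known more for NRF2 control, and the cytokine IL11 (log2 -0.81) were lower. In LNCaP-AI cells 28 were tested, 5 rose and none fell by edgeR or DESeq2, beside 7.22% and 5.52% of all genes, with a median of -0.52; 0 were lower at an unadjusted p under 0.05 as well. MMP13 (log2 2.26; 2.12 and 2.18 within the sides), VIM (log2 0.93; 1.01 and 0.84) and CCND1 (log2 0.70; 0.72 and 0.63) were higher, each with an edgeR adjusted p of 0.0123. VIM and CD44 belong to both this list and the DU-145 marker list.

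Of 15 other immediate early genes, 13 were tested in DU-145 cells, 8 rose and 2 fell, beside 26.3% and 25.3% of all genes, with a median of 0.50. The nuclear receptor NR4A2 had 68, 49 and 56 counts against 337, 398 and 344 (log2 2.62, edgeR adjusted p = 2.57e-12), and NR4A1 (log2 1.42) and ZFP36 (log2 1.09) were higher. EGR1, the best known of them, fell from 686, 490 and 615 counts to 159, 202 and 161 (log2 -1.79, edgeR adjusted p = 1.03e-11), and CCN2 was lower (log2 -0.31). In LNCaP-AI cells 13 were tested and 1, the antiproliferative BTG2 (log2 1.77; 1.47 and 1.80 within the sides), was called higher, near the 7.22% of all genes, with a median of -0.36. With all 12 samples in a single fit the called genes in DU-145 cells were 7 upstream genes, 9 targets and 5 immediate early genes. Of the list genes named for DU-145 cells, MAFG, JDP2, PLAUR, IL11, EGR1 and CCN2 were called in 12 of 13 alternative fits. NFE2L1 was called in 10 of them, and the other list genes named for this line in all 13. In LNCaP-AI cells none of the genes of these 5 lists was called without DOX 2 or without DOX 3, when 1 gene was called over the whole table. With the side covariate the called genes in this line were 5 of 8 other family genes and 4 of 5 partners of small MAF proteins. They were also 13 of 28 upstream genes, 7 of 28 targets and 6 of 13 immediate early genes. Beside them 6271 of the 16030 genes tested were called. The plot of the lists shows every tested gene.

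**Figure D5:**
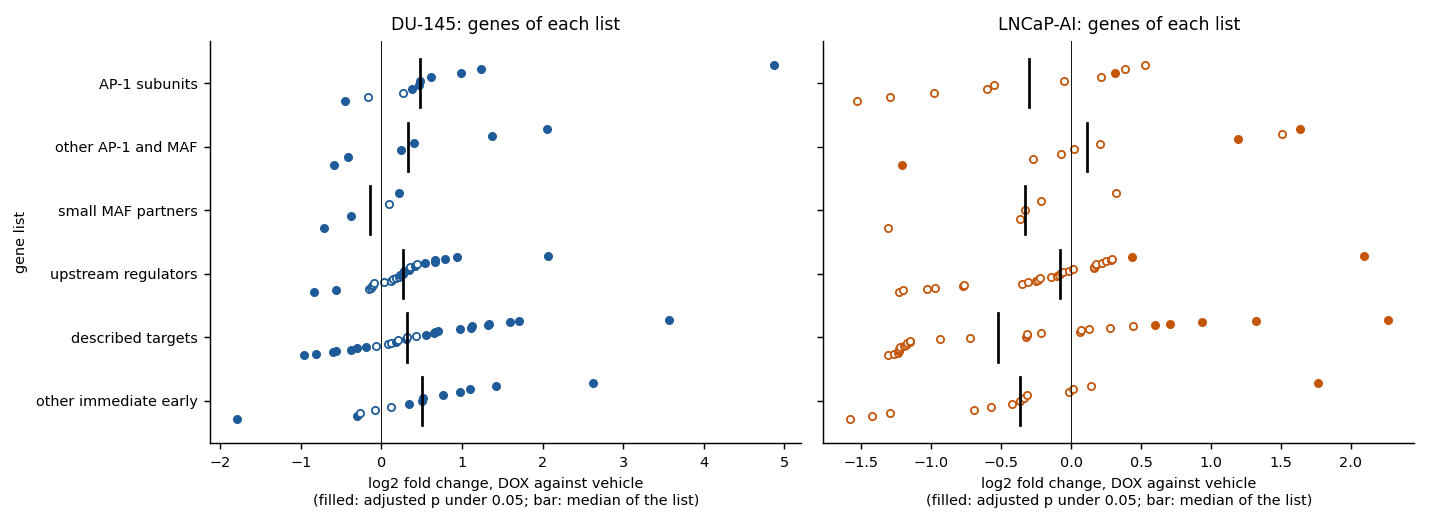
Log2 fold change with DOX (horizontal axis) of every tested gene of the 10 subunits and of the 5 related lists (rows) in DU-145 (left) and LNCaP-AI cells (right); filled circles have an edgeR adjusted p under 0.05 and the black bar is the median of the list. The medians in DU-145 cells run from -0.15 to 0.50, and most circles in LNCaP-AI cells are open.

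Over the 12 samples, centred within each line, the genes whose log2 CPM ran most like that of FOSL1 among 9703 genes were FRMD6, S100A16 and S100A6, each with a Pearson r of 0.998. Those most like JUN were SBF2 (r = 0.989), PSMD1 (r = 0.985) and CLIP1 (r = 0.985). These values are descriptions over samples that share library depth and, for FOSL1, the division of the LNCaP-AI samples.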

How the data were processed

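RNA-seq libraries (TruSeq Stranded mRNA, from Trizol-isolated RNA) of 12 samples were used. The authors deposited raw counts per gene, made after alignment with STAR. The submitters' processing notes name STAR 2.7.0, CASAVA 1.8.2, DESeq2 1.24.0 and GRCh38.p7; the counting tool and its strand setting are not given in the sources used here. Of 58037 identifiers, 56993 matched a symbol.

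Groups were compared with edgeR 4.0.16 (TMM, glmQLFit, glmQLFTest; R 4.3.3) on genes reaching 10 counts in 3 or more samples of the fit, with Benjamini-Hochberg adjustment over all genes tested and calls under 0.05. CPM was scaled by TMM within the line or the vehicle samples compared; TPM used union exon lengths of GENCODE release 44. Shares and summed TPM were compared by two-sided exact permutation tests. The floor was set at 3 counts. The exact intervals of the FOSB ratios and the floor cover counting error only, since the counts carry no molecular identifiers. Intervals of fold changes come from the standard errors of the edgeR fits and include the spread between samples. The steps were tested on simulated data.

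Replicates are labelled as separate samples, and the study's methods describe cells cultured in triplicate and distinct samples; p-values measure the spread between these samples. Replicates all differed by more than sampling noise (smallest chi-square per degree of freedom 2.53). The members and lists were chosen with earlier results of these data known. Named were all members, MUC1, up to 3 called genes of each list, line and direction with the smallest adjusted p, and the 3 genes most like FOSL1 and JUN among those with a mean of at least 5 CPM in each line; CAV1, CD44, AXL and the genes overlapping members were named after their values were seen. Alternatives were DESeq2 1.42.0, other scalings and filters, a replicate block, a single fit of 12 samples, a side covariate and leaving out each sample. For the family shares the longest transcript was used as an alternative length.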

Additional observations from a re-analysis of the deposited data

Results flagged for a closer look

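For 4 subunits the DOX effect differed between the lines by the interaction test over all 12 samples, as LNCaP-AI minus DU-145 on the log2 scale. JUND was called lower in DU-145 and higher in LNCaP-AI cells, the latter near the threshold (edgeR adjusted p = 0.0479) and in 8 of 14 alternative fits. The difference was 0.80 for JUND. It was -5.43 for FOSB, where all 3 DU-145 vehicle samples had 1 or 2 counts. It was -0.81 for MAFK (called in 12 of 18 alternative fits), with 0.23 and 0.45 within the LNCaP-AI sides and 1.23 in DU-145 cells. It was -1.21 for BATF3, a call that 2 other scalings, no filter and leaving out any of 9 samples each ended, and which passed the test in neither line alone, and whose DOX samples were all below the vehicle samples in LNCaP-AI cells and overlapped them in DU-145 cells.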

How the results depend on the processing

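In DU-145 cells the 8 called subunits became 5 and the 7033 called genes 4083 with all 12 samples in a single fit; leaving out 1 sample gave 7 to 8 subunits. FOS, not called, ranged from -0.45 to 0.18 on the log2 scale when 1 sample was left out, and was 0.18 without vehicle 3. In LNCaP-AI cells, beside 1 subunit and 2043 genes, DESeq2 called 2 and 3517, all 12 samples in a single fit 4 and 3933, and the side covariate 5 and 6271; without the filter no subunit (0) was called. Leaving out 1 sample gave 0 to 1 subunits and 1 to 3538 genes. FOSL2 turned to 0.11 and MAFF to 0.0137 with the side covariate, and FOSL2 ranged from -0.21 to 0.0797 when 1 sample was left out. For the difference between the lines, 884 genes were called without the filter in place of 1543, and leaving out 1 sample gave 2 to 7 subunits and 737 to 3471 genes, with JUNB between -0.0501 and 0.40. At baseline 3 subunits were called without the filter and 3 to 6 with 1 sample left out, and JUND ranged from -0.18 to 0.0143. The causes of these shifts were not tested. Same-numbered DU-145 samples deviated with little relation to each other (correlations 0.13, -0.09 and 0.08). In LNCaP-AI cells they deviated in opposite directions (-0.94, -0.81 and -0.84) and lay on opposite sides of the division. The replicate numbers thus gave no matched pairs. A replicate block left 0 subunits and 0 genes called in LNCaP-AI cells, and 0 subunits and 52 genes for the difference between the lines, where JUND (0.80), FOSB (-5.45), MAFK (-0.79) and BATF3 (-1.25) kept their sizes with edgeR adjusted p = 0.0879, 0.0861, 0.138 and 0.180. With 1 sample left out its group keeps 2, and the fit pools the spread over groups. Low counts limit FOS, FOSB and BATF3.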
